A study of Mus musculus with 6 samples.

Results

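Interferon-response and major histocompatibility complex (MHC) class I genes were examined in 6 libraries of total RNA from mouse Sertoli cells, the somatic cells that nurse germ cells in the testis tubule. The lines were either positive or negative for expression of Y-GFP, a green fluorescent reporter, and the comparison asks how the transcriptomes of these lines differ. The GFP-positive group held replicates 2, 4 and 7 and the GFP-negative group replicates 9, 11 and M. The labels give both groups the same cell type and no treatment, strain, age or time, and do not say whether replicates were separate clones, cultures or animals, so p-values measure only the spread between these libraries, which may be technical. The 9 genes were chosen by name (Xaf1, Irf7, Irf9, Ifit1, Ifit3, Isg15, H2-K1, H2-D1 and B2m) among 49203 gene names, and all 9 were found, with 48 named transcripts. Levels are deposited FPKM values (fragments normalized for transcript length and library size), summed over the transcripts of a gene name and scaled between libraries, so they can be compared between genes per unit of length. Of the 9, 6 had a mean of at least 0.5 scaled FPKM and were tested. Ifit1, Ifit3 and Isg15 were below that filter, and Irf7 passed it through its level in GFP-positive 4.

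Interferons are secreted proteins that signal infection. Type I interferon binds the receptor Ifnar1-Ifnar2, the kinases Jak1 and Tyk2 are activated, and a transcription factor complex that contains Irf9 binds the interferon-stimulated response element (ISRE) before antiviral genes. MHC class I molecules show peptides of the cell to T cells and consist of a heavy chain, here H2-K1 or H2-D1, and the small shared chain B2m. Class I genes are expressed at a basal level and rise with interferon. Sertoli cells form the barrier behind which germ cells are shielded from the immune system.

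The element that names this response can be read in the promoters of several of these genes. RefSeq promoter windows (GRCm38.p6, 250 bases before to 50 after a start) were matched for all 9 genes, in 11 windows. The letters GAAANNGAAA, the core of the ISRE, were found on either strand in 4 of the 9 genes (Isg15, Ifit1, Ifit3 and B2m). Counted by window, they were in 4 of the 11 and in 3.44% of all 32851 windows. H2-K1 and H2-D1 did not hold them, but held the shorter core GAANNGAAA, chosen after the sequences were seen, which occurred in 7.52% of windows. Isg15 (positions -128 to -120) and Xaf1 (10 to 18 bases after the start) held this shorter core too, so that 4 of the 9 genes had it, in 5 of the 11 windows. The letters TTCNNNGAA of the gamma-activated site were in none of the 11 windows and in 8.3% of all. A match describes letters in these windows and not a bound site. The 160 bases before the start are shown for these 6 genes, 5′ to 3′ on the strand of the gene, with the matches in capitals (the shorter core of Isg15 is left in lower case; for the first 4 GAAANNGAAA or its reverse complement, for H2-K1 and H2-D1 the reverse complement of the shorter core). Their positions on GRCm38.p6 are chr4:156200819-156200978 for Isg15 (minus strand), chr19:34640729-34640888 for Ifit1, chr19:34583369-34583528 for Ifit3, chr2:122147527-122147686 for B2m, chr17:34000348-34000507 for H2-K1 (minus strand) and chr17:35262934-35263093 for H2-D1.
Isg15: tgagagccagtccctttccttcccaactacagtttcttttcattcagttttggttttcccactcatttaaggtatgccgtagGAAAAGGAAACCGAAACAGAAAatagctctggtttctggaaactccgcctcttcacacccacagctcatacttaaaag
Ifit1: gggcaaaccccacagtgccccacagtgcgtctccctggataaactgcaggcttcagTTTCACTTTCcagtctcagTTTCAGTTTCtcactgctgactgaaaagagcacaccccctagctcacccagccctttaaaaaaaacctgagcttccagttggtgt
Ifit3: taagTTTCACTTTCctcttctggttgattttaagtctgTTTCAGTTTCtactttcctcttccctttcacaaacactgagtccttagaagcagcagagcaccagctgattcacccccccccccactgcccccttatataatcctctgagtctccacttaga
B2m: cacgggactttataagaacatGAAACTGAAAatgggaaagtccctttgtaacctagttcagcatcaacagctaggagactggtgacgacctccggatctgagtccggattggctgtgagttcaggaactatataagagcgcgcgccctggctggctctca
H2-K1: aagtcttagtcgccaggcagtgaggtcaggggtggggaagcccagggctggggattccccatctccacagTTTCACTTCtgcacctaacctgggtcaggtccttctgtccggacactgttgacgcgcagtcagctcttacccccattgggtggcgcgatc
H2-D1: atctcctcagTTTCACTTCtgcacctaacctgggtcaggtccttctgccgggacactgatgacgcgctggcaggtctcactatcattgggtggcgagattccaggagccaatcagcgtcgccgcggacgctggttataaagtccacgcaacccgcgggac
Isg15 had 3 overlapping matches between positions -78 and -57 from its start, and Ifit1 and Ifit3 had 2 each. B2m had 1, from -139 to -130. The H2-K1 and H2-D1 promoters also shared a run of 47 identical bases just before the shorter core, which no window of another gene held.
Shared run: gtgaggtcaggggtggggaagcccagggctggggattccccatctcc

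All 9 genes were highest in the same library, GFP-positive 4, and for 7 of them that library stood at least 2-fold above each of the other 5 on scaled FPKM + 0.5. Of 15803 genes with at least 0.5 scaled FPKM in their highest library, 16.1% were highest in GFP-positive 4 and 0.392% stood 2-fold above every other library there. Irf7, Ifit1, Ifit3 and Isg15 were at 0.342 scaled FPKM or less in the other 5 libraries of both groups. These genes thus reached the 0.5 of that comparison only in GFP-positive 4, which makes them highest there by its filter. Irf9 stood at 0.239 to 0.554 in the GFP-negative libraries, near the level of Irf7 there, and Xaf1, H2-K1, H2-D1 and B2m were higher in every library. For Xaf1, Irf9, H2-D1 and B2m every GFP-positive library was above every GFP-negative library. This held for 4 of the 6 tested members, beside 21.9% of all 13585 tested genes. In the test of the 2 groups only B2m passed, 1 of 6, where 12.3% of all tested genes were called higher in GFP-positive libraries and 23.9% were called in either direction (limma, Benjamini-Hochberg adjusted over all tested genes, threshold 0.05). With libraries scaled to equal FPKM sums, the median of all genes moved to -0.67 on the log2 scale and 9.65% of the calls were higher, against 51.7% here, while the 6 members kept a positive difference and none passed. Their log2 differences were then 1.12 for B2m, 0.87 for Xaf1, 0.54 for Irf9, 0.34 for Irf7, 0.32 for H2-D1 and 0.26 for H2-K1, each lower by more than 1.5 times. The median log2 difference of the 6 tested members was 1.05, beside -0.01 for all tested genes, and Irf7 entered that median only through GFP-positive 4.

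**Figure D1:**
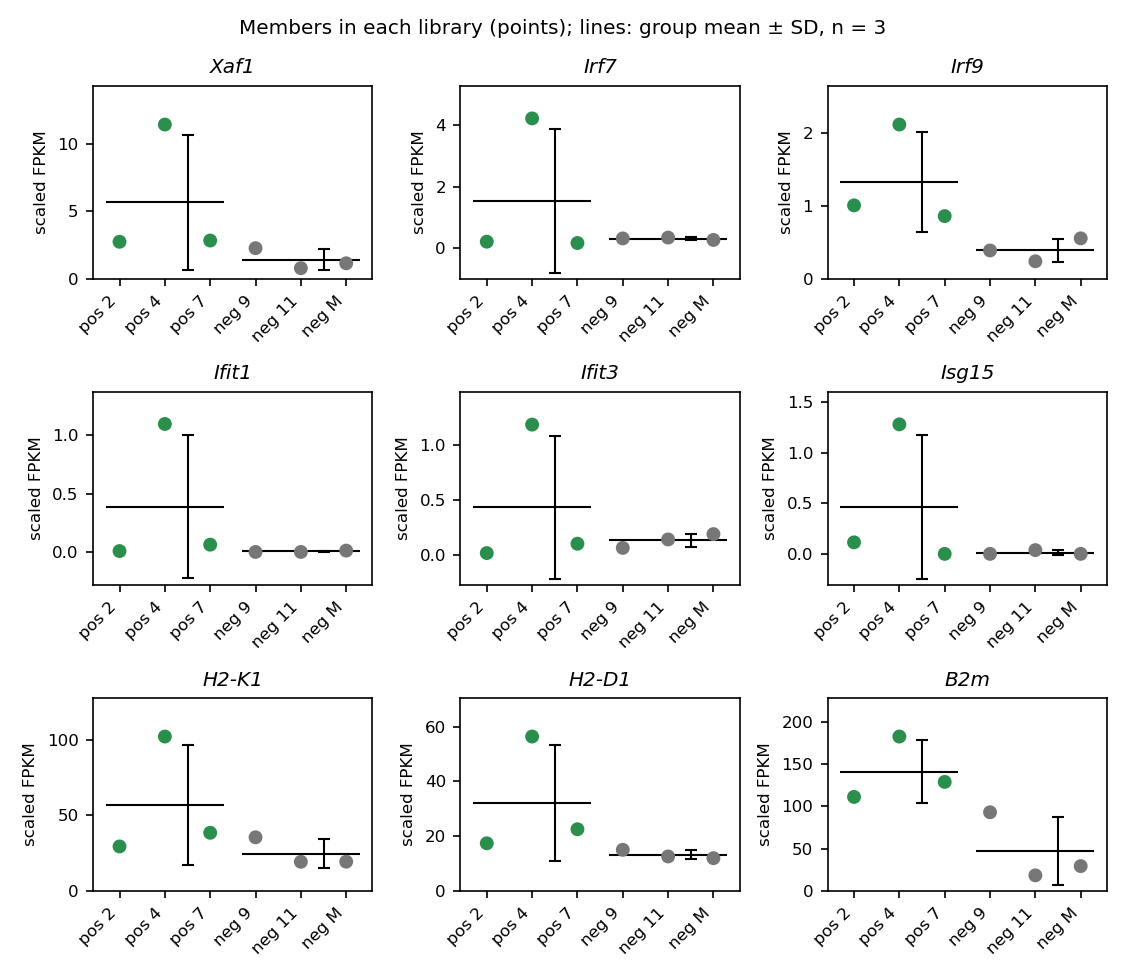
Scaled FPKM of each member in the 6 libraries (green, GFP-positive; grey, GFP-negative), with lines for the group mean and bars for the SD of 3 libraries. GFP-positive 4 is the highest point in all 9 panels, and in the panels of Irf7, Ifit1, Ifit3 and Isg15 the other 5 libraries lie near the bottom.

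Irf7 encodes the transcription factor that amplifies the interferon response and is itself induced by interferon. It stood at 0.209, 4.22 and 0.164 scaled FPKM in GFP-positive 2, 4 and 7 and at 0.314, 0.342 and 0.265 in GFP-negative 9, 11 and M. GFP-positive 4 was thus 12.4-fold above the next library, while GFP-positive 2 and 7 were below all 3 GFP-negative libraries. Outside GFP-positive 4 these are low levels, and their order is uncertain. They rest on 5.43 and 4.63 kb of aligned bases in GFP-positive 2 and 7. In GFP-negative 9, 11 and M they rest on 8.84, 7.69 and 5.31 kb. Among 15803 genes with at least 0.5 scaled FPKM in their highest library, Irf7 ranked 2nd by how far GFP-positive 4 stood above the next library. Irf7 reached 0.5 only in GFP-positive 4, so being highest there was fixed by the filter. The rank rests on the same value. The group difference on the log2 scale was 0.70 (SE 0.68) and did not pass (limma adjusted p = 0.462). It was 1.14 without GFP-positive 2, 1.20 without GFP-positive 7 and 0.06 with library weights, none of which passed (limma adjusted p = 0.286, 0.279 and 0.856). Without GFP-positive 4, Irf7 was below the filter and had no test. The gene lies at chr7:140842619-140846394 (mm39, as in the deposited tables), with 13 named transcripts, and overlaps Phrf1 on the opposite strand.

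Ifit1 and Ifit3 encode proteins that bind foreign RNA and their partners, and Isg15 encodes a ubiquitin-like protein that is attached to other proteins. Ifit1 (chr19:34618271-34627409) stood at 0.00766, 1.10 and 0.0624 scaled FPKM in GFP-positive 2, 4 and 7, was listed at 0 in GFP-negative 9 and 11 and stood at 0.0116 in M. Ifit3 (chr19:34560931-34566131) stood at 0.0173, 1.18 and 0.102 in GFP-positive and at 0.0643, 0.141 and 0.190 in GFP-negative libraries. Isg15 (chr4:156283912-156285253) stood at 0.114 and 1.28 in GFP-positive 2 and 4 and at 0.0372 in GFP-negative 11, and was listed at 0 in the other 3 libraries. For all 3 genes the GFP-positive libraries other than 4 overlapped the GFP-negative ones. These are low levels. In GFP-positive 4 they rest on 31.2, 22.1 and 9.65 kb of aligned bases for Ifit1, Ifit3 and Isg15, and in no other library on more than 2.89 kb. With no filter on low values, none of the 3 passed (limma adjusted p = 0.450, 0.637 and 0.440).

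Xaf1 encodes a pro-apoptotic protein that is induced by interferon and antagonizes XIAP. It stood at 2.75, 11.5 and 2.84 scaled FPKM in GFP-positive 2, 4 and 7 and at 2.27, 0.786 and 1.15 in GFP-negative 9, 11 and M. The lowest GFP-positive library was above the highest GFP-negative one by a small margin, and GFP-positive 4 was 4.04-fold above the next library. The log2 difference was 1.49 (SE 0.53) and did not pass (limma adjusted p = 0.0715). Without GFP-positive 4 it was 0.89 (limma adjusted p = 0.155), a fall of the estimate by more than 1.5 times. Irf9, the DNA-binding subunit of the complex that recognizes the ISRE, stood at 1.01, 2.12 and 0.860 in GFP-positive and at 0.388, 0.239 and 0.554 in GFP-negative libraries. Its groups did not overlap, and its log2 difference of 0.98 (SE 0.33) did not pass (limma adjusted p = 0.0582).

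The class I heavy chain genes were expressed in every library. H2-K1 (chr17:34214991-34219321, minus strand) stood at 29.4, 102.4 and 38.5 scaled FPKM in GFP-positive 2, 4 and 7 and at 35.5, 19.2 and 19.3 in GFP-negative 9, 11 and M. GFP-positive 2 was below GFP-negative 9, so the groups overlapped. H2-D1 (chr17:35481706-35486475) stood at 17.4, 56.4 and 22.5 in GFP-positive and at 15.0, 12.5 and 11.9 in GFP-negative libraries, with no overlap. GFP-positive 4 was 2.66-fold above the next library for H2-K1 and 2.51-fold for H2-D1. The log2 differences were 1.03 (SE 0.47) for H2-K1 and 1.07 (SE 0.41) for H2-D1, and neither passed (limma adjusted p = 0.136 and 0.0866). Without GFP-positive 4 they were 0.52 and 0.59 (limma adjusted p = 0.336 and 0.167). Class I genes are near-identical in sequence, so reads can be divided between them by the quantification, and each of these levels carries that uncertainty.

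B2m (chr2:121978167-121983564), which overlaps Patl2 on the opposite strand, stood at 111.2, 182.7 and 128.9 scaled FPKM in GFP-positive 2, 4 and 7 and at 93.0, 18.2 and 29.2 in GFP-negative 9, 11 and M. GFP-positive 4 was 1.42-fold above the next library, the smallest such excess among the 9 genes. The low libraries were GFP-negative 11 and M, whereas GFP-negative 9 was close to the GFP-positive ones. B2m rose from 46.8 ± 40.4 to 140.9 ± 37.2 scaled FPKM (SD, n = 3 libraries), a log2 change of 1.89 (SE 0.54, limma adjusted p = 0.0384). Leaving out GFP-positive 2, 4 and 7 and GFP-negative 11 and M in turn gave log2 differences of 2.06, 1.71, 1.96, 1.36 and 1.70, none of which passed (limma adjusted p from 0.0694 to 0.136). Over all genes, 12 were called with GFP-positive 7 left out and 16 with GFP-negative M left out. The limma adjusted p was 0.132 with low genes kept, 0.0868 with equal FPKM sums, 0.0997 after quantile normalization and 0.0837 with a length trend removed. Without GFP-negative 9 the log2 change was 2.55 (limma adjusted p = 0.00267).

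Levels among the 9 genes spanned a wide range per unit of length. In GFP-positive 4 the order was B2m, H2-K1, H2-D1, Xaf1, Irf7, Irf9, Isg15, Ifit3 and Ifit1. In GFP-negative 11 it was H2-K1, B2m, H2-D1, Xaf1, Irf7, Irf9, Ifit3, Isg15 and Ifit1. Across the 6 libraries, the log2 levels of Irf7, Ifit1, Ifit3 and Isg15 were correlated with each other at a Pearson r of 0.94 to 0.98, and those of H2-K1 and H2-D1 at 0.97. B2m was correlated with Xaf1 at 0.87, H2-K1 at 0.83, Irf9 at 0.78, H2-D1 at 0.76, Ifit1 at 0.55, Isg15 at 0.52, Irf7 at 0.43 and Ifit3 at 0.34. H2-D1 was correlated with Ifit1 at 0.94 and with Irf7 at 0.87, so the profiles graded into each other. These are descriptions over 6 points that share library and depth, and GFP-positive 4 is the highest point for every gene.

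Other genes followed the same profiles across the libraries. Of about 6238 candidates with a mean of at least 5 scaled FPKM, those closest to B2m by Pearson r over the 6 libraries were Atp6v0e (0.997), a subunit of the vacuolar proton pump, Higd2a (0.997) and Rab29 (0.996). Atp6v0e stood at 224.4, 370.5 and 277.6 scaled FPKM in GFP-positive 2, 4 and 7 and at 171.2, 36.2 and 65.4 in GFP-negative 9, 11 and M, which is the order of B2m. The closest to H2-D1 were Ltbr (0.988), the lymphotoxin beta receptor gene, Mrps18a (0.986) and Hes6 (0.985). Among the closest to H2-K1 were Lrrc41 (0.995) and Exoc7 (0.988). For Irf7 they were Vat1 (0.991), Xpnpep1 (0.974) and Spns1 (0.962), for Xaf1 Stoml1 (0.99), Wtip (0.989) and Ralb (0.985), and for Irf9 Rab5c (0.991), Il3ra (0.985) and Zfp771 (0.984). With 6 libraries and so many candidates, values this high are a description and no test was made of them.

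The pathway around the members was read through 10 lists of 151 genes, of which 149 were in the tables under the names used and 82 were tested. The 2 absent names, Ddx58 and Tmem173, are older symbols of Rigi and Sting1, which were present. Of the 82, 16 were called higher and 8 lower in GFP-positive libraries, 19.5% and 9.76%, beside 12.3% and 11.5% of all tested genes. The median log2 difference of the 82 was 0.15. With equal FPKM sums the balance turned, to 3 higher and 20 lower, beside 519 higher and 4859 lower of all 13848 genes tested there. Of the 15 genes called higher that were still tested there, 3 passed (Ifi27l2a, Igtp and Psme2), and all 8 called lower passed. Leaving out 1 library also moved the counts. Without GFP-positive 4, 7 were higher and 3 lower, beside 837 and 659 of all 13729 genes tested. Without GFP-positive 2 they were 11 and 2, beside 964 and 536 of 13457. Without GFP-negative 11 they were 10 and 2, beside 997 and 836 of 13468. Without GFP-negative 9 they were 17 and 13, beside 2393 and 2537 of 13620. Without GFP-positive 7 or GFP-negative M none was called in either direction, beside 12 and 16 of all genes in the same order.

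In contrast, 51 of the 102 list genes with at least 0.5 scaled FPKM in their highest library were highest in GFP-positive 4, beside 16.1% of all such genes. In 12 of the 102 (11.8%) GFP-positive 4 was at least 2-fold above every other library, beside 0.392% of all. A gene that reached 0.5 only in GFP-positive 4 is highest there by this filter, in the lists as among all genes. List genes such as Rtp4, Ifi44, Oas1a, Oas1b and Ddx60 entered both counts in this way, so the first count is partly set by the filter. With equal FPKM sums, GFP-positive 4 was the highest library for 28 of 102 (27.5%), beside 5.50% of all genes, and all 9 members were still highest there. In all, 62 genes stood 2-fold above every other library in GFP-positive 4, of which 7 were members, 12 were list genes and 43 were neither. The same count was 238 for GFP-positive 2, 402 for GFP-negative 11 and between 35 and 38 for the other 3 libraries, so other libraries also had genes of their own. The genes furthest above the next library in GFP-positive 4, chosen after their values were seen, included Irf7, the antiviral gene Rtp4, Xaf1, Plxnb3, Lcp1, H2-Aa and Isg15. Of these, Irf7, Rtp4, Plxnb3 and Isg15 reached 0.5 scaled FPKM only in GFP-positive 4.

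**Figure D2:**
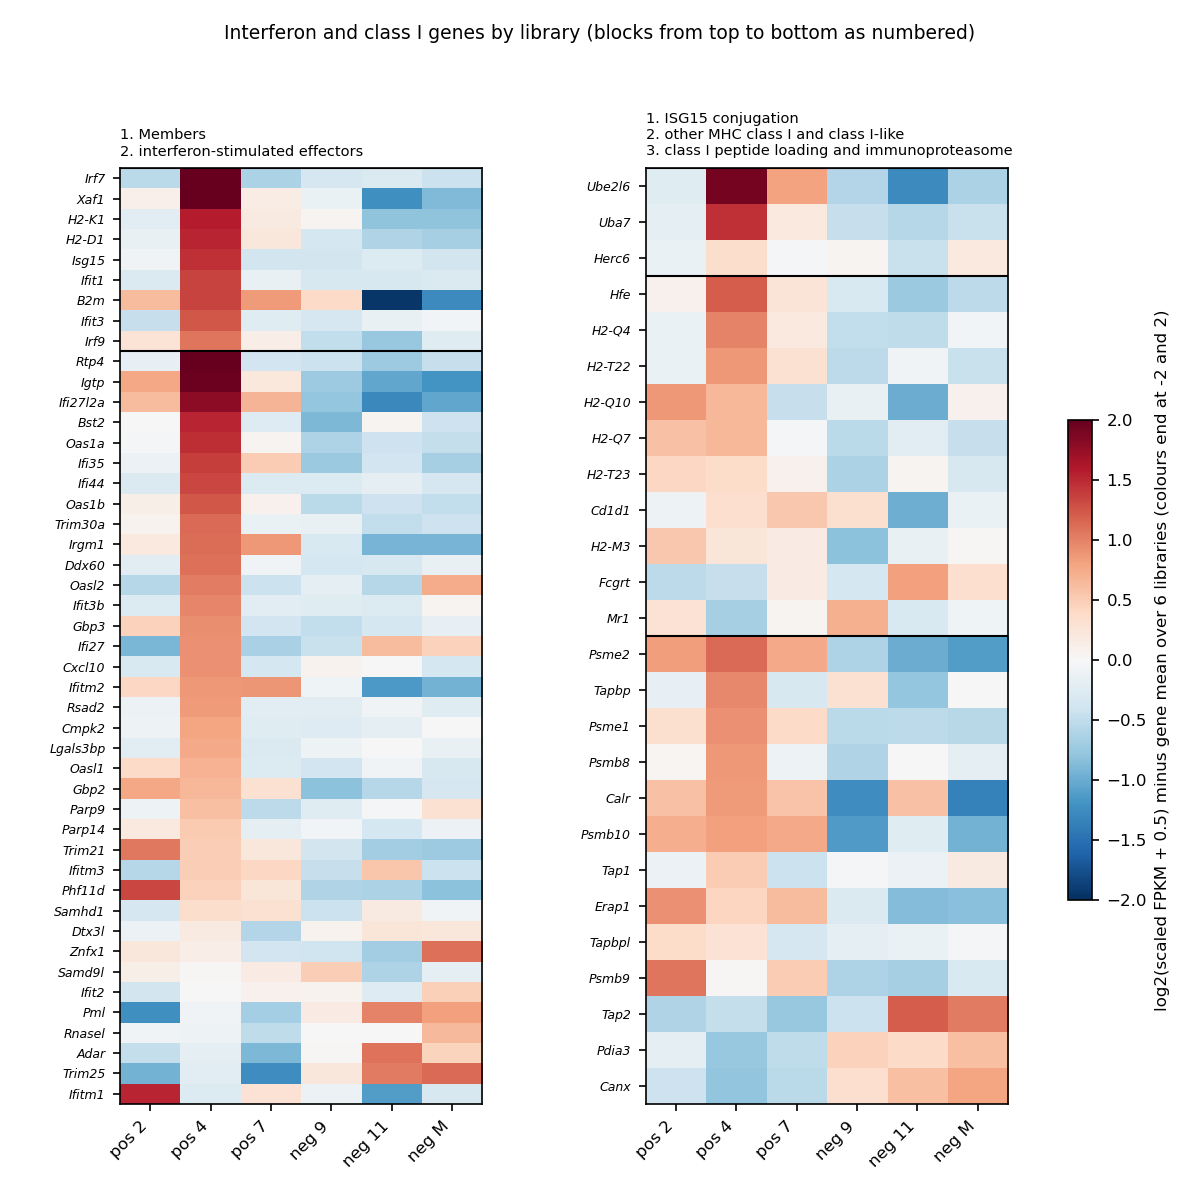
Heat map of log2(scaled FPKM + 0.5) minus the mean of the gene over 6 libraries, for the members and 4 of the lists, limited to genes with at least 0.5 scaled FPKM in their highest library. The column of GFP-positive 4 is red for the members and the upper effectors, whereas Psme2, Psmb10 and Erap1 are red in all 3 GFP-positive columns. Genes that reach 0.5 only in GFP-positive 4 are highest there by this limit.

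The interferon genes themselves were at or near 0. Of 20 interferon genes, 14 were listed at 0 in every library, the highest level was 0.21 scaled FPKM, and none was tested. Ifne and Ifnz had the highest means. Ifne was listed at 0 in 5 libraries and Ifnz stood at 0.08 or less in all 6. The receptor genes were expressed in both groups. Of 6 receptor genes tested, Ifnar2 rose from 15.0 ± 7.44 to 35.2 ± 2.60 scaled FPKM (SD, n = 3 libraries, log2 change 1.30, SE 0.33, limma adjusted p = 0.0277) and 5 did not pass. Of all tested genes, 12.3% were called higher in GFP-positive libraries. Ifnar2 stood at 32.4, 37.6 and 35.4 in GFP-positive 2, 4 and 7, so GFP-positive 4 was not apart.

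Among 9 tested transducers and interferon regulatory factors, Irf1 and Irf3 rose and Irf2 and Jak1 fell, beside 12.3% and 11.5% of all tested genes. Irf3, the factor that first switches on interferon genes after sensing, rose from 18.3 ± 3.17 to 39.5 ± 8.79 scaled FPKM (log2 change 1.08, limma adjusted p = 0.0263). Irf2, known as a repressor of interferon-responsive promoters, fell from 5.07 ± 1.66 to 1.22 ± 0.383 (log2 change -1.67, limma adjusted p = 0.0150). The log2 changes were 1.09 for Irf1 and -0.85 for the kinase gene Jak1 (limma adjusted p = 0.0313 and 0.0339). With equal FPKM sums neither Irf3 (0.32) nor Irf1 (0.35) passed (limma adjusted p = 0.346 and 0.339), nor did Ifnar2 (0.54, limma adjusted p = 0.152). Of 5 tested inhibitors, the phosphatase gene Ptpn2 rose (log2 change 1.33, limma adjusted p = 0.0247). Of 11 tested sensors and adaptors, the adaptor gene Mavs (log2 change -1.15) and the kinase gene Tbk1 (-0.89) fell (limma adjusted p = 0.0436 and 0.0306) and none rose, where 11.5% of all tested genes were lower and 12.3% higher.

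Among 25 tested interferon-stimulated effectors, 7 rose and 2 fell, beside 12.3% and 11.5% of all tested genes. Their median log2 difference was 0.22. Ifi27l2a rose from 0.107 ± 0.111 to 2.21 ± 1.35 scaled FPKM (log2 change 2.06, limma adjusted p = 0.0129), and stood at 1.40, 3.77 and 1.46 in GFP-positive 2, 4 and 7. The GTPase gene Igtp stood at 2.89, 7.24 and 1.78 in GFP-positive and 0.701, 0.458 and 0.367 in GFP-negative libraries (log2 change 1.97, limma adjusted p = 0.0194). Irgm1, another interferon-inducible GTPase gene (log2 change 1.45), and Ifitm2, which encodes a membrane protein that blocks virus entry (1.45), also rose (limma adjusted p = 0.0201 and 0.0220). The ubiquitin ligase gene Trim25 fell from 5.06 ± 1.73 to 1.36 ± 0.714 (log2 change -1.60, limma adjusted p = 0.0218). Of 37 effectors with at least 0.5 scaled FPKM in their highest library, 23 were highest in GFP-positive 4 (62.2%), beside 16.1% of all genes. Of the 23, Rtp4, Ifi44, Ifit3b, Oas1a, Oas1b, Oasl1, Rsad2, Cmpk2, Lgals3bp, Ddx60 and Cxcl10 reached 0.5 in no other library. For these, being highest in GFP-positive 4 was fixed by the filter. Rtp4, Ifi44, Oas1a, Ddx60 and Bst2, chosen after their values were seen, were 0.38, 0.02, 0.25, 0.11 and 5.86 scaled FPKM in GFP-positive 2 but 3.96, 1.10, 1.62, 1.03 and 17.7 in GFP-positive 4. Rtp4 and Bst2 were tested and did not pass (limma adjusted p = 0.211 and 0.216), and the other 3 were below the filter. Rtp4 was tested only through its level in GFP-positive 4.

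The ISG15 conjugation genes were all 4 highest in GFP-positive 4. Of all genes at 0.5 scaled FPKM or more in their highest library, 16.1% were. Among the 4, Usp18 stood at 1.01 in GFP-positive 4 and at 0.362 or less elsewhere. It thus met that level only in GFP-positive 4, and it was below the test filter. Ube2l6, the conjugating enzyme gene for Isg15, stood at 4.72, 22.9 and 10.3 scaled FPKM in GFP-positive 2, 4 and 7 and at 3.63, 2.07 and 3.48 in GFP-negative 9, 11 and M. Ube2l6 rose by a log2 change of 1.66 (SE 0.50, limma adjusted p = 0.0456), 1 of 3 tested, beside 12.3% of all tested genes. Uba7, the activating enzyme gene, stood at 2.72, 9.63 and 3.69 and at 2.18, 1.96 and 2.19 in the same libraries and did not pass.

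Of 13 genes of class I peptide supply with at least 0.5 scaled FPKM in their highest library, 7 were highest in GFP-positive 4, beside 16.1% of all genes. Psmb8 was among the 7 and reached 0.5 only in GFP-positive 4. In the group test, 4 of 11 rose and 2 fell, beside 12.3% and 11.5% of all tested genes, and the median log2 difference was 0.32. Psme2, a subunit of the proteasome activator that shapes class I peptides, stood at 106.6, 131.1 and 101.6 scaled FPKM in GFP-positive 2, 4 and 7 and at 38.6, 29.7 and 27.3 in GFP-negative 9, 11 and M (log2 change 1.82, SE 0.26, limma adjusted p = 0.00936). Every GFP-positive library was more than 2-fold above every GFP-negative one. Psmb10, an immunoproteasome subunit gene, rose from 5.28 ± 1.99 to 15.6 ± 0.562 (log2 change 1.53), Erap1, a peptide-trimming enzyme gene, by 1.32, and Psme1, the partner of Psme2, by 1.07 on the log2 scale (limma adjusted p = 0.0134, 0.0163 and 0.0225). The 2 that fell encode chaperones of the endoplasmic reticulum that serve many proteins, Canx (-1.15) and Pdia3 (-0.96; limma adjusted p = 0.0180 and 0.0326). The transporter gene Tap1, chosen after its values were seen, stood between 1.80 and 3.90 in all libraries.

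**Figure D3:**
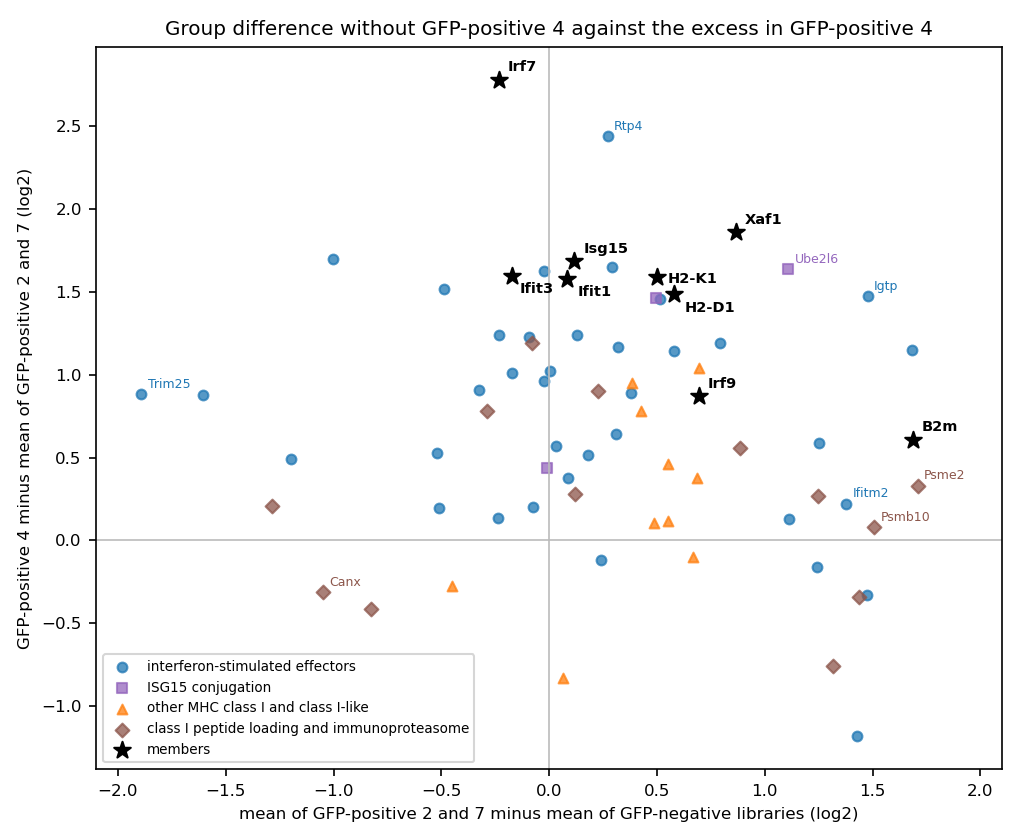
Each point is a gene of 4 lists or a member (stars), by its log2 difference between the mean of GFP-positive 2 and 7 and the mean of the GFP-negative libraries (horizontal) and by its log2 excess in GFP-positive 4 over the mean of GFP-positive 2 and 7 (vertical). Both axes share GFP-positive 2 and 7. Irf7, Ifit1, Ifit3 and Isg15 lie near 0 on the horizontal axis with an excess of 1.58 to 2.78. Outside GFP-positive 4 they stood at 0.342 scaled FPKM or less. At such levels the 0.5 added before the log holds differences near 0, so their horizontal position cannot show whether the groups differ. B2m lies near Psme2 at a group difference of 1.69 and an excess of 0.61.

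None of the 9 other class I and class I-like genes tested passed, where 12.3% of all tested genes were called higher and 11.5% lower. Their median log2 difference was 0.63. H2-T22 stood at 11.6, 23.7 and 15.9 scaled FPKM in GFP-positive 2, 4 and 7 and at 8.79, 12.1 and 9.30 in GFP-negative 9, 11 and M, and H2-T23 between 3.06 and 6.85. None of the 3 tested MHC class II genes passed, beside the same shares of all tested genes. H2-Aa, a class II chain gene, stood at 1.17, 8.24 and 2.41 in GFP-positive and 1.69, 0.68 and 0.61 in GFP-negative libraries, highest in GFP-positive 4. The other tested class II genes were highest in GFP-negative libraries. H2-Ab1 stood at 0.49, 1.26 and 0.33 in GFP-positive and 1.51, 0.36 and 0.88 in GFP-negative libraries. H2-DMa stood between 1.76 and 3.00, highest in GFP-negative 11. Cd74 and Ciita, the class II chaperone and regulator genes, did not exceed 0.60 and 0.05.

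**Figure D4:**
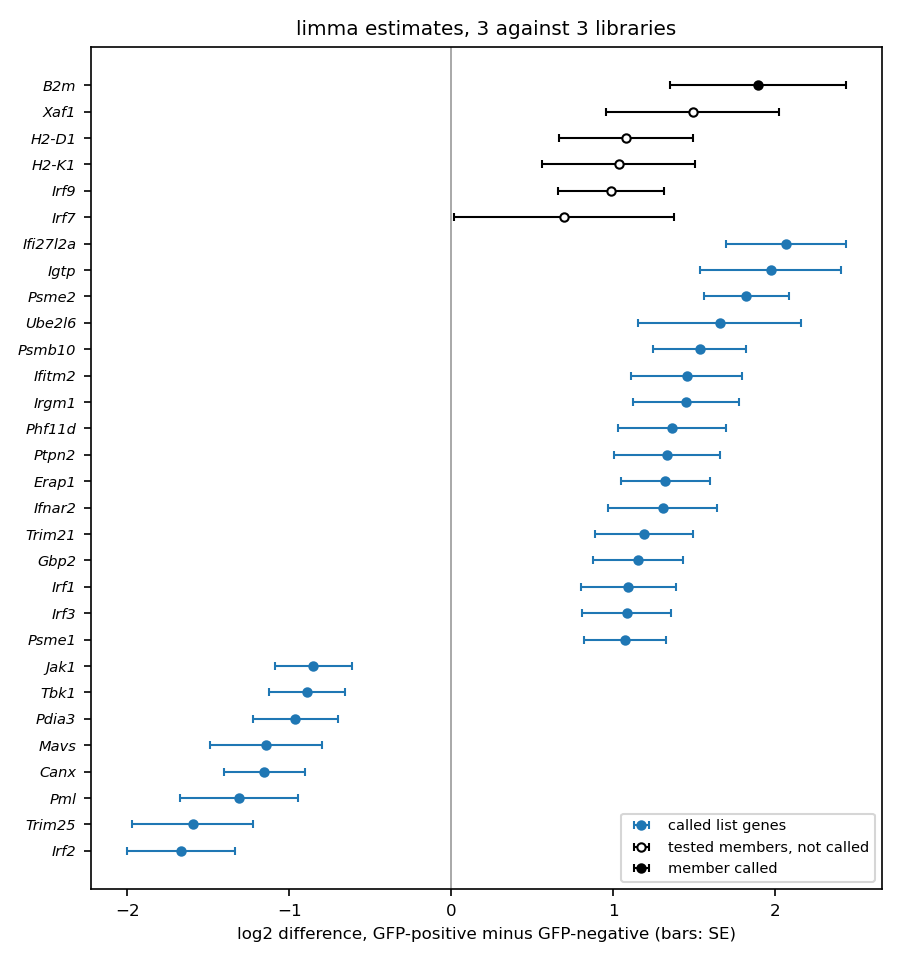
Log2 difference, GFP-positive minus GFP-negative, with its SE for the 6 tested members (black; filled where called) and the 24 called list genes (blue). The bar of Irf7 reaches almost to 0, and B2m is the member furthest from it.

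The transcripts behind the gene sums moved differently. H2-K1 had 16 named transcripts, of which a pair with 8 exons held most of the level. ENSMUST00000025181 (1619 nt) stood at 5.45, 74.7 and 16.0 scaled FPKM in GFP-positive 2, 4 and 7 and at 25.2, 11.9 and 12.5 in GFP-negative 9, 11 and M. ENSMUST00000172912 (1628 nt) stood at 12.4, 16.6 and 15.9 and at 5.05, 4.51 and 4.86 in the same libraries. The excess of GFP-positive 4 thus lay in the first of them, and the non-overlapping groups in the other. The share of ENSMUST00000025181 in the named H2-K1 level was 18.5% in GFP-positive 2 and 41.6% in GFP-positive 7, against 61.7% to 72.9% in the other 4 libraries. Both are estimates of how reads divide between nearly equal transcripts, and no test was made. For H2-D1, ENSMUST00000172785 held 79.2% to 93.3% of the level in every library.

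At Xaf1 and Irf9 much of the signal was in assembled transcripts without a gene name, which the members' levels do not include. At Xaf1 (chr11:72192455-72204559) 2 unnamed transcripts on the same strand stood at 3.48, 8.78 and 5.72 scaled FPKM in GFP-positive 2, 4 and 7 and at 1.72, 0.859 and 2.89 in GFP-negative 9, 11 and M. They made up 43.0% to 71.6% of the summed level. With unnamed transcripts added at loci that carry 1 gene name, Xaf1 passed, at a log2 change of 1.61 (limma adjusted p = 0.0318). That setting adds none at Irf9, whose assembled locus also carries Rnf31, and Irf9 stood at 0.98 (limma adjusted p = 0.0540). At Irf9 (chr14:55841028-55848002) 3 unnamed transcripts with 29 or 30 exons run through from the neighbouring gene Rnf31. These stood at 1.80, 6.17 and 2.17 in GFP-positive and at 2.62, 3.00 and 1.57 in GFP-negative libraries, and made up 64.2% to 92.6% of the summed level. With all overlapping unnamed transcripts added, a setting chosen after the data were seen, the log2 difference of Irf9 was 0.53 (limma adjusted p = 0.348) and that of Xaf1 1.62 (limma adjusted p = 0.0393). Unnamed transcripts were found at 3 of the 9 loci, and at 2 of these, Xaf1 and H2-K1, every GFP-positive library was above every GFP-negative one, as at 11% of the 3804 loci with unnamed beside named transcripts. GFP-positive 4 remained the highest library in both unnamed sets.

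**Figure D5:**
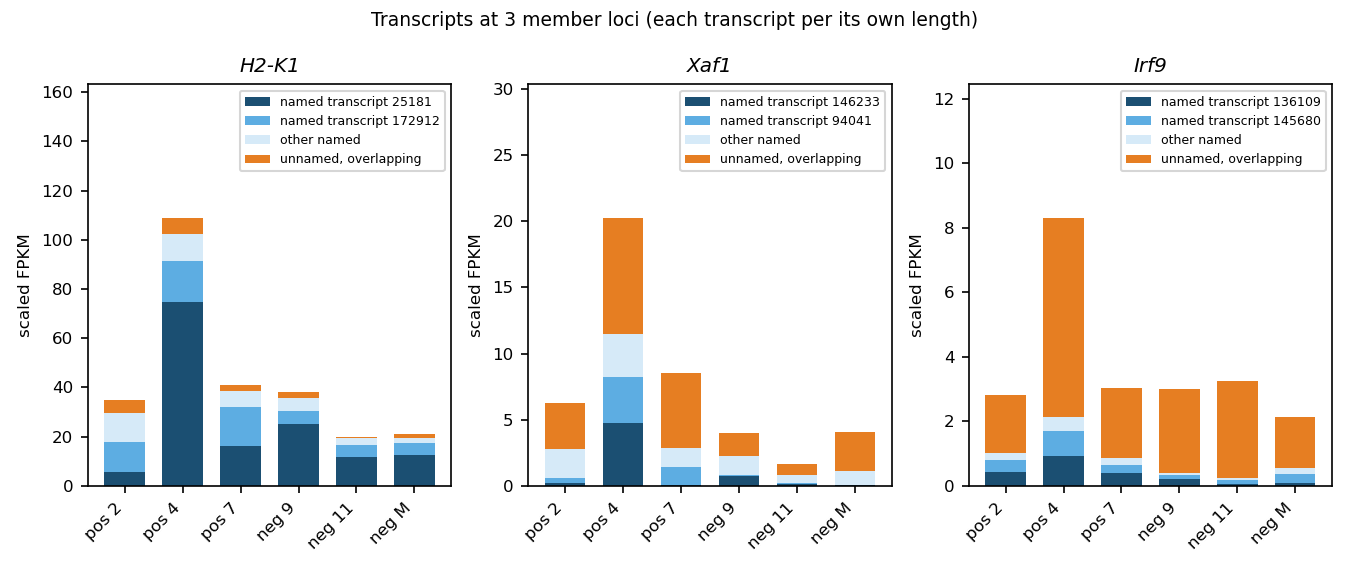
Stacked bars of scaled FPKM per library for the 2 named transcripts with the highest mean, the other named transcripts and the unnamed overlapping transcripts at H2-K1, Xaf1 and Irf9. Unnamed transcripts (orange) are a small part of H2-K1 and the larger part of Irf9 in every library.

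Values that move with these results are given here for all lists of markers. The libraries held 8.25 to 11.8 Gb of aligned bases, most in GFP-positive 4, and unnamed transcripts held 50.5% of its FPKM, against 29.9% to 49.4% in the others. Leukocytes carry interferon and class II genes at high levels. The summed level of 12 leukocyte markers was 2.95, 2.19 and 3.51 scaled FPKM in GFP-positive 2, 4 and 7 and 10.4, 4.72 and 8.19 in GFP-negative 9, 11 and M, so GFP-positive 4 was the lowest library. The defining marker Ptprc did not exceed 0.14, and of the 2 tested markers Lyz2 fell (log2 change -1.86, limma adjusted p = 0.0144). Beside the marker counts given here, 12.3% of all tested genes were called higher and 11.5% lower. The summed level of 8 germ cell markers was 147.4, 30.1 and 42.3 in the GFP-positive and 1.34 to 1.85 in the GFP-negative libraries. Of 7 tested, 6 rose, and the summed level in GFP-positive 4 was the lowest of its group. Of 11 tested Sertoli markers, Dmrt1 rose and Sox9 and Gata4 fell, Clu stood between 509.7 and 2795 scaled FPKM, and Rhox5 and Fshr did not exceed 0.23 and 1.77. The summed levels of 5 myoid markers were 48.7, 468.8 and 320.5 in GFP-positive and 147.5, 524.3 and 134.0 in GFP-negative libraries (1 of 5 tested fell). Most of each sum was Acta2, at 46.0, 450.3 and 307.5 and at 134.6, 468.8 and 119.6 in the same libraries. Myh11 and Actg2 were lower in every GFP-positive than in every GFP-negative library, and the groups overlapped for Acta2, Cnn1 and Des. The summed levels of 6 fibroblast markers were 39.0 to 57.5 in GFP-positive and 48.0 to 1139 in GFP-negative libraries (1 of 5 fell). Those of 6 Leydig markers were 35.2 to 86.3 and 70.3 to 86.9 (none of 4 passed). Those of 5 endothelial markers were 3.49 to 6.43 and 7.56 to 12.3 (the 1 tested did not pass). In bulk RNA, fewer cells of a type and less RNA per cell cannot be told apart. The part of depth, unnamed transcripts and other cell types in the levels of the members was not tested.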

How the data were processed

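Total RNA depleted of ribosomal RNA was sequenced as strand-specific libraries from 6 Sertoli samples, per the labels' protocols. Per the submitters' processing notes, Trimmomatic, HISAT2 and StringTie were used with build mm39; versions and the strand setting are not given in the sources used here. The authors deposited FPKM and coverage per transcript and no read counts, so no counting interval is given. The deposited coverage was used only to obtain aligned bases. FPKM was summed per gene name and scaled by the median of ratios. Genes with a mean under 0.5 or a longest transcript under 200 nt were left out. Groups were compared by limma 3.58.1 (R 4.3.3) on log2(scaled FPKM + 0.5) with a mean-variance trend and Benjamini-Hochberg adjustment. On this scale the changes of low genes come out too small. With 3 against 3 libraries, an exact permutation test cannot give a p below 0.1, so none was used. The script was tested on simulated data. Named genes were the 9 members, up to 5 called genes per list (or the 2 with the highest mean), and the 3 genes closest to each tested member. The members and the 17 lists (10 pathway and 7 cell type lists) were chosen with earlier results of these data known. In all, 19 alternatives were planned and 2 were added after the data were seen. Promoters were from RefSeq (GRCm38.p6), and no coordinates were converted between builds. Results for some genes are not reported here.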

Additional observations from a re-analysis of the deposited data

Results flagged for a closer look

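Assembled transcripts without a gene name, which the comparison of named genes does not use, were higher in every GFP-positive library than in every GFP-negative library at 2 of the 3 member loci that have any. This held for 11% of 3804 assembled loci with unnamed beside named transcripts. At Xaf1 the lowest GFP-positive library stood at 3.48 scaled FPKM and the highest GFP-negative library at 2.89. At H2-K1 the corresponding values were 2.55 and 2.48, a gap smaller than the spread within either group.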

How the results depend on the processing

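No paired analysis was possible because the groups share no replicate number. Under every alternative that gave a value, the tested members and the called pathway list genes kept the sign of their log2 difference. Other named genes were not checked for this. The balance of calls changed: with equal FPKM sums 519 genes were higher and 4859 lower. With FPKM as deposited they were 1429 and 1672, against 1677 and 1567. The count of called genes (3244) was 678 with no filter on low values, 5378 scaled to an equal sum of FPKM, 2089 with the length trend removed, 10216 with library weights, 7346 with weights fitted gene by gene (added after the data were seen) and 206 at a threshold of 0.01, and from 12 (without GFP-positive 7) to 4930 (without GFP-negative 9) with 1 library left out. The iterative fit of the library weights did not converge. The count of called members (1) was 0 with no filter, 0 with equal sums, 0 with quantile normalization and 0 at the stricter threshold, 2 with unnamed isoforms added, 2 with all overlapping unnamed transcripts added, 5 with library weights, 4 with weights fitted gene by gene, and 0 to 2 with 1 library left out. With the length trend removed it was still 1, but Irf9 passed (limma adjusted p = 0.0490) and B2m did not. Pathway list genes called higher (16) numbered 2 with no filter, 3 with equal sums, 32 with library weights, 1 at the stricter threshold and 0 to 17 with 1 library left out. Those called lower (8) numbered 1, 20, 28 and 0 under the same settings, 5 with the length trend removed, 16 with weights fitted gene by gene and 0 to 13 with 1 library left out. List genes highest in GFP-positive 4 (51) numbered 28 with equal sums. The cause of these changes was not tested. FPKM without counts leaves the counting error of the low genes unknown.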
